A study of Mus musculus with 6 samples.

Results

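The enzymes that build fatty acids from citrate, lengthen them, insert their first double bond and couple them to coenzyme A were examined in T follicular helper (Tfh) cells, the CD4+ T cells that help B cells in germinal centers. The genes were 10 of the 25861 that could be placed in every library, and they were taken by name as *Acly*, *Acaca*, *Fasn*, *Scd1*, *Scd2*, *Elovl1*, *Elovl5*, *Elovl6*, *Acsl4* and *Acsl5*. Tfh cells lacking Bob1, a transcriptional coactivator encoded by *Pou2af1*, were compared with control Tfh cells by RNA sequencing, with 3 libraries in each group. The comparison asks whether loss of Bob1 alters the RNA of these genes. The study reported a fatty acid biosynthetic gene set among those past its thresholds in gene set enrichment analysis. That analysis scores a whole set and was not rerun here, so the tests of single genes below do not decide on it. The genes of the study's set were not compared with the 10 examined here.

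CD4Cre/+Bob1fl/fl Tfh cells, named Bob1KO in the labels, came from FoxP3GFP/DTRCD4Cre/+Bob1fl/fl mice, and control CD4+/+Bob1fl/fl Tfh cells, named WT, from FoxP3GFP/DTRCD4+/+Bob1fl/fl mice. Both groups therefore carried the FoxP3GFP/DTR reporter and the floxed *Pou2af1* allele, and only the Cre transgene differed. Cre is driven by the *Cd4* promoter, so deletion is not limited to Tfh cells and reaches the T cell lineage from the thymus onward. All mice received 100 µg of NP49-CGG, a hapten on chicken gamma globulin, in complete Freund's adjuvant by the intraperitoneal route. Spleens were taken on day 7, and CD3+ CD4+ cells that were CXCR5+ PD-1+ and negative for GFP and B220 were sorted, a gate that leaves out FoxP3+ cells. The libraries of a group came from separate experiments, each with cells of several mice pooled. Whether libraries of both groups shared an experiment is not stated. The ages of the mice of each library are not given in the labels. Because RNA was measured in bulk, fewer cells of a type and less RNA per cell cannot be told apart.

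In de novo fatty acid synthesis, ATP citrate lyase (*Acly*) splits citrate exported from mitochondria into cytosolic acetyl-CoA, acetyl-CoA carboxylase 1 (*Acaca*) turns it into malonyl-CoA in the committed step, and fatty acid synthase (*Fasn*) joins these units mainly into palmitate. Elongases of the Elovl family then lengthen the chains, stearoyl-CoA desaturases (*Scd1*, *Scd2*) make monounsaturated fatty acids, and long-chain acyl-CoA synthetases (*Acsl4*, *Acsl5*) activate fatty acids for use in lipids. T cells that are activated and divide are known to engage this pathway for membrane synthesis, and many of its genes are targets of the sterol regulatory element binding proteins (SREBPs).

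Bob1 acts on DNA through Oct-1 and Oct-2, which bind the octamer ATTTGCAT, so the promoters of the genes were searched for it and for the sterol regulatory element TCACNCCAC of SREBPs. Windows of 250 bases before to 50 bases after the start were available for 8 of the 10 genes from RefSeq (GRCm38.p6), with 2 starts for *Elovl1*; *Scd1* and *Scd2* had none. On both strands, neither element was found whole in any of the 9 windows, and 1.74% of the 32851 promoters of the mouse table held the octamer and 1.24% the sterol regulatory element. The start used for *Acaca*, at 84195438, lies inside its gene span, which begins at 84129635. Its window is therefore not that of the most upstream start, and the region around 84129635 was not searched. The starts used for *Acsl4*, *Acsl5*, *Elovl1* and *Fasn* also lie inside their gene spans. The windows of these genes did not reach the upstream end of the span, so the stretch beyond them was not searched. Partial matches upstream of the start are shown for 3 genes, 5′ to 3′ on the strand of the gene with the matched stretch in capitals, to show how far these promoters are from a whole element. *Acly* (chr11:100528139-100528168, minus strand) and *Acsl4* (chrX:142390561-142390590, minus strand) each matched 7 of the 8 fixed letters of the sterol regulatory element, and 24.2% of all promoters matched at least as many. *Elovl6* (chr3:129532348-129532377, plus strand) matched 6 of the 8 letters of the octamer, and 77.5% of all promoters matched at least as many.
Acly: cctgaaacgaTCAGGCCACagcccccagcc
Acsl4: gcgggctcagCCACACCACcgagctccccc
Elovl6: agggggaggagATTTCCCTgtagacgagta
A match or its absence describes these letters in these windows and says nothing of binding.

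The deposited values are FPKM, fragment numbers scaled for transcript length and for the size of the library, which Cufflinks gave for each library. *Pou2af1* had 1.16, 0.237 and 0.317 FPKM in CD4Cre/+Bob1fl/fl Tfh cells, against 46.1, 32.5 and 34.4 FPKM in CD4+/+Bob1fl/fl Tfh cells, and its log2 fold change was -4.65 ± 0.26 (SE; limma, adjusted P = 0.00445), as the labels require. Leaving out both replicate 2 libraries gave an adjusted P of 0.0785 for it, and leaving out WT replicate 2 alone 0.0667. Tfh marker genes were present in every library, with a summed level of 2102 to 2801 FPKM in CD4Cre/+Bob1fl/fl and 1994 to 2821 FPKM in CD4+/+Bob1fl/fl Tfh cells over 8 genes, led by *Cd3e*. The sum of 7 myeloid markers, led by *S100a8*, ran from 70.5 to 3824 FPKM in CD4Cre/+Bob1fl/fl libraries, against 481 to 835 FPKM in CD4+/+Bob1fl/fl libraries, and Bob1KO replicate 1 held the highest value and Bob1KO replicate 2 the lowest. Sums of 7 NK and CD8 markers lay between 98.2 and 212 FPKM in CD4Cre/+Bob1fl/fl libraries, against 232 and 366 FPKM in CD4+/+Bob1fl/fl libraries. This separation rested on 1 gene, *Ccl5*, the most abundant of the list over all 6 libraries. Without *Ccl5* the sums were 75.3 to 127 FPKM in CD4Cre/+Bob1fl/fl libraries, against 90.8 to 133 FPKM in CD4+/+Bob1fl/fl libraries, and overlapped. Sums of 7 proliferation genes, led by *Pcna*, lay between 153 and 175 FPKM in CD4Cre/+Bob1fl/fl libraries, against 198 and 233 FPKM in CD4+/+Bob1fl/fl libraries, and did not overlap. Without *Pcna* they remained apart only narrowly, the highest CD4Cre/+Bob1fl/fl sum being 88.9 FPKM and the lowest CD4+/+Bob1fl/fl sum 89.4 FPKM. Taken singly, *Pcna* and *Cdk1* were apart between the groups, while *Mki67*, *Top2a*, *Mcm2*, *Mcm5* and *Ccnb1* overlapped. No gene of these lists passed the adjusted P, and their part in the values below was not tested. Both replicate 2 libraries had *Ddx3y*, a gene of the Y chromosome, at 27.9 FPKM in the Bob1KO and 29.9 FPKM in the WT library, and the 4 others had it at 0. *Xist*, named like *Ddx3y* after the values were seen, was near 0 in the replicate 2 libraries and at 6.45 to 12.7 FPKM in the rest. Sex therefore differed between libraries within each group, in the same way in both groups.

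None of the 9 enzymes that could be tested passed the test for a difference between the groups. Of 10411 genes with a mean of at least 1 FPKM, 0.0288% passed an adjusted P of 0.05 in either direction (3 genes), and 0 of the 9 did. At an unadjusted P of 0.05, 5.28% of all genes and 0 of the 9 passed, the unadjusted P of the 9 ranging from 0.181 to 0.947 (limma; adjusted P 0.945 to 0.999). Fold changes are given on the scale of log2(FPKM + 1), which understates those of genes near 1 FPKM. They ran from -0.05 for *Elovl1* to 0.27 for *Scd2*, 8 of them above 0 and 1 below, and with a median of 0.15, beside a median of -0.003 and a share of 49.4% positive over all genes tested. Every one of the 9 fold changes was smaller than 2 of its own standard errors. The 95% intervals lay between -0.42 and 0.79, so that a doubling or a halving fell outside the interval of all 9 genes on this scale. With a pseudocount of 0.1, which distorts low genes less, that held for 8 of the 9, and the interval of *Acaca* then reached 1.01.

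**Figure D1:**
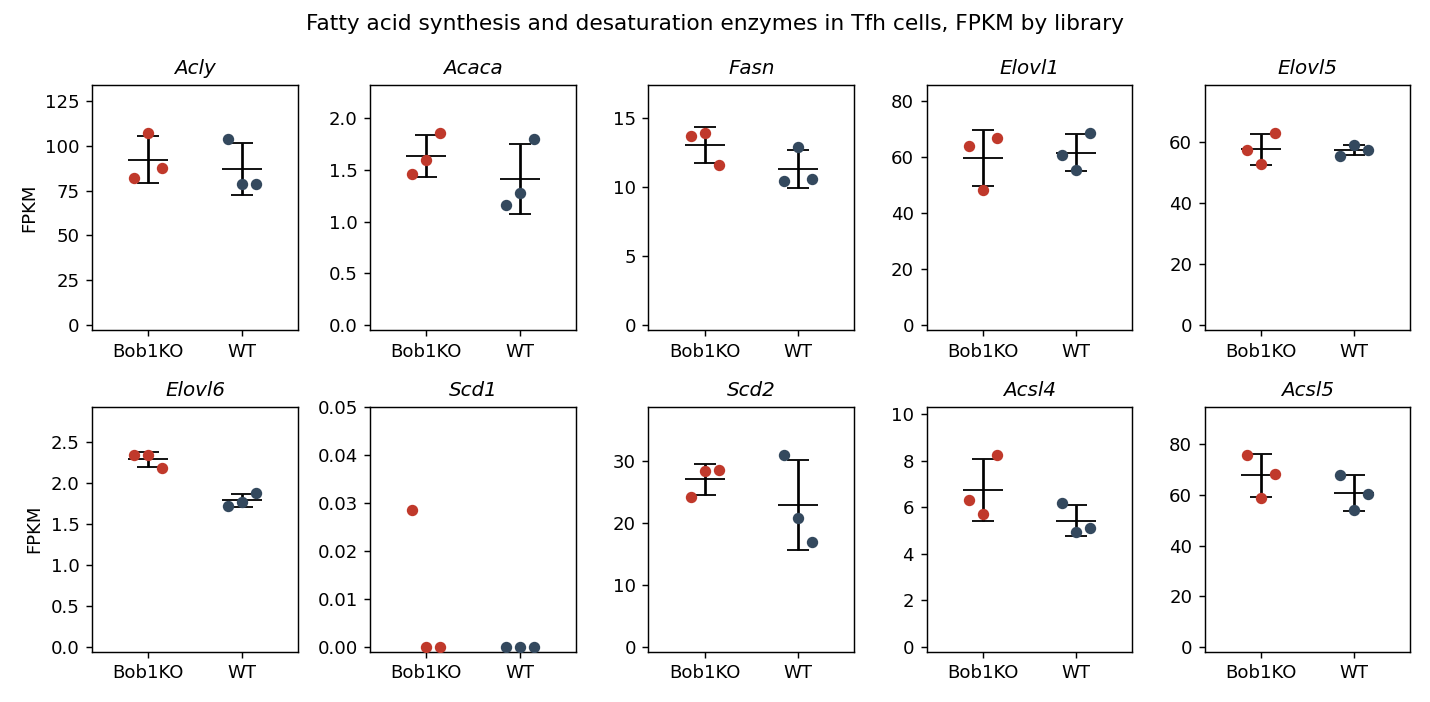
FPKM of each enzyme gene in the 3 Bob1KO (red) and 3 WT (blue) Tfh libraries, with 1 linear axis per gene starting near 0; points are libraries in the order of replicates 1 to 3, long horizontal lines are means and bars are SD, not drawn for Scd1. The groups are apart for Elovl6 alone (2.18 to 2.34 FPKM in Bob1KO against 1.72 to 1.88 FPKM in WT), and Scd1 is at or near 0.

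The genes of the core synthetic steps were expressed at very different levels. *Acly* was abundant, with 82.1, 107 and 87.4 FPKM in CD4Cre/+Bob1fl/fl Tfh cells, against 104, 78.7 and 78.8 FPKM in CD4+/+Bob1fl/fl Tfh cells. One library of each group stood above the other two of its group, Bob1KO replicate 2 and WT replicate 1, and the groups overlapped. The means were 92.2 ± 13.2 FPKM in CD4Cre/+Bob1fl/fl and 87.0 ± 14.4 FPKM in CD4+/+Bob1fl/fl Tfh cells (SD, n = 3 each), a log2 fold change of 0.09 ± 0.16 (SE; limma, adjusted P = 0.971). Its direction rested on single libraries and turned to -0.03 without Bob1KO replicate 2 and to -0.09 without both replicate 2 libraries, while it was 0.22 without WT replicate 1. In GRCm38, *Acly* lies on chromosome 11 from 100476352 to 100528000 and ranked at the 90.0th percentile of mean FPKM among the genes tested.

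*Acaca*, the gene of the committed step, was far lower, with 1.46, 1.59 and 1.86 FPKM in CD4Cre/+Bob1fl/fl Tfh cells, against 1.16, 1.28 and 1.80 FPKM in CD4+/+Bob1fl/fl Tfh cells. WT replicate 3 lay among the CD4Cre/+Bob1fl/fl libraries, and the difference was 0.14 ± 0.21 on the log2 scale (SE; limma, adjusted P = 0.964). With 1 library left out it ran from 0.06, without WT replicate 1, to 0.25, without WT replicate 3. It stood at the 5.15th percentile of the genes tested. The gene spans 272017 bases of chromosome 11, from 84129635 to 84401651. Its assembled rows began at 84193075 to 84195438, so they did not cover the part of the span before them. Up to 8 further rows of assembled sequence lay inside its own row in a library, 20 in all over 5 libraries, the highest at 1.54 FPKM. These inner rows were not added to the gene. The highest of them reached 97.1% of the gene's own value in Bob1KO replicate 2 and 120% in WT replicate 2, was between 44.1% and 77.8% in 3 further libraries, and WT replicate 1 had none. *Acacb*, which encodes the mitochondrial acetyl-CoA carboxylase, did not exceed 0.135 FPKM in any library.

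*Fasn*, which encodes the multienzyme that makes palmitate, had 13.7, 13.9 and 11.6 FPKM in CD4Cre/+Bob1fl/fl Tfh cells, against 10.4, 12.9 and 10.5 FPKM in CD4+/+Bob1fl/fl Tfh cells. Bob1KO replicates 1 and 2 were above every WT library, and Bob1KO replicate 3 fell between them. The means were 13.04 ± 1.30 FPKM in CD4Cre/+Bob1fl/fl and 11.28 ± 1.38 FPKM in CD4+/+Bob1fl/fl Tfh cells (SD, n = 3 each), with a log2 fold change of 0.20 ± 0.14 (SE; limma, adjusted P = 0.945) and an exact permutation P of 0.2, where 3 libraries against 3 cannot go below 0.1. *Fasn* also lies on chromosome 11, from 120805958 to 120825166. The levels of the 3 core genes thus followed the order *Acly*, *Fasn*, *Acaca* in all 6 libraries, and no value of one gene reached the range of the next.

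Among the elongases, *Elovl1* and *Elovl5* were the abundant members and *Elovl6* was low. ELOVL1 lengthens saturated very long chains, and *Elovl1* had 63.9, 48.2 and 66.6 FPKM in CD4Cre/+Bob1fl/fl Tfh cells, against 60.8, 55.3 and 68.5 FPKM in CD4+/+Bob1fl/fl Tfh cells. In both groups replicate 2 was lowest and replicate 3 highest, and the fold change was -0.05 ± 0.16 (log2, SE; limma, adjusted P = 0.982). ELOVL5 acts on polyunsaturated chains, and *Elovl5* had 57.3, 52.9 and 63.0 FPKM in CD4Cre/+Bob1fl/fl Tfh cells, against 55.6, 58.9 and 57.4 FPKM in CD4+/+Bob1fl/fl Tfh cells. It was the gene with the narrowest interval of the 9, from -0.24 to 0.26 around a log2 fold change of 0.01 (SE 0.11; limma, adjusted P = 0.999). The WT libraries enclosed by the Bob1KO values had a coefficient of variation of 2.91%. *Elovl1* lies on chromosome 4 from 118426874 to 118432953 and *Elovl5* on chromosome 9 from 77917365 to 77984519. Their levels did not differ beyond the spread of the libraries, since the ranges of the genes overlapped within each group.

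ELOVL6 takes palmitate to stearate, the substrate of the stearoyl-CoA desaturases. *Elovl6* had 2.33, 2.34 and 2.18 FPKM in CD4Cre/+Bob1fl/fl Tfh cells, against 1.72, 1.77 and 1.88 FPKM in CD4+/+Bob1fl/fl Tfh cells. All CD4Cre/+Bob1fl/fl libraries were above all CD4+/+Bob1fl/fl libraries, the only enzyme of the 9 whose groups did not overlap, beside 10.7% of all genes tested without overlap in either direction. The means of 2.28 ± 0.09 FPKM in CD4Cre/+Bob1fl/fl and 1.79 ± 0.08 FPKM in CD4+/+Bob1fl/fl Tfh cells (SD, n = 3 each) gave a ratio of 1.28 and a log2 fold change of 0.24 ± 0.17 (SE; limma, adjusted P = 0.945), and the exact permutation P was 0.1, the smallest possible. The standard error is wider than the spread of these 6 libraries alone because limma draws the variance of each gene toward that of genes of like level. The confidence bounds that Cufflinks gave for single libraries overlapped, with the lowest lower bound among CD4Cre/+Bob1fl/fl libraries at 1.90 FPKM and the highest upper bound among CD4+/+Bob1fl/fl libraries at 2.11 FPKM. *Elovl6* occupies 106110 bases of chromosome 3, from 129532386 to 129638495, and assembled rows inside it, of up to 1.95 FPKM, were not added. These rows were unequal between the groups, with 2, 4 and 1 in Bob1KO replicates 1 to 3, against 0, 0 and 2 in WT replicates 1 to 3, and their part in the difference was not tested. With 1 library left out its fold change stayed between 0.22 and 0.26, the narrowest such range of the 9 genes.

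Of the stearoyl-CoA desaturases, *Scd2* was the one expressed. *Scd1*, the form best known from liver and fat, was at 0.0284 FPKM in Bob1KO replicate 1 and listed at 0 in the other 5 libraries, so it was not tested. *Scd2* had 24.2, 28.4 and 28.6 FPKM in CD4Cre/+Bob1fl/fl Tfh cells, against 31.0, 20.7 and 17.0 FPKM in CD4+/+Bob1fl/fl Tfh cells. The CD4Cre/+Bob1fl/fl libraries lay inside the range of the CD4+/+Bob1fl/fl libraries, of which WT replicate 1 was the highest and stood well above the other two. The means were 27.1 ± 2.50 FPKM in CD4Cre/+Bob1fl/fl and 22.9 ± 7.27 FPKM in CD4+/+Bob1fl/fl Tfh cells (SD, n = 3 each), and the log2 fold change of 0.27 ± 0.22 (SE) had an adjusted P of 0.945 (limma). Its size depended on single libraries: without WT replicate 1 it was 0.50 and without WT replicate 3 it was 0.09, with adjusted P of 0.772 and 0.999 (limma).

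The position of *Scd2* on chromosome 19, from 44293676 to 44306864, bears on these values, because the 4 *Scd* genes lie in a cluster and their reads can be shared. In WT replicate 1 the assembled row began upstream of the gene at 44252702, and in Bob1KO replicate 2 at 44203288, where it also took in *Scd3*. *Scd3* therefore carries the value of *Scd2* in that library, 28.4 FPKM, while it was at most 0.561 FPKM in the other 5, and its log2 fold change of 1.40 comes from this shared row. Without both of these libraries, an alternative chosen after seeing the data, the log2 fold change of *Scd2* was 0.47 ± 0.19 (SE; limma, adjusted P = 0.774). A row next to *Scd2* that overlaps its last 565 bases held 31.7 FPKM in Bob1KO replicate 1 and 28.01 FPKM in WT replicate 2 and was at 0 in the other 4 libraries. Its part in the values of *Scd2* was not tested. *Scd4* did not exceed 0.334 FPKM.

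Of the acyl-CoA synthetases, *Acsl4* was much the lower. ACSL4 prefers arachidonate and other polyunsaturated fatty acids, and *Acsl4* had 6.33, 5.70 and 8.27 FPKM in CD4Cre/+Bob1fl/fl Tfh cells, against 6.20, 4.95 and 5.13 FPKM in CD4+/+Bob1fl/fl Tfh cells. Bob1KO replicates 1 and 3 were above all WT libraries and Bob1KO replicate 2 was not. Means were 6.77 ± 1.34 FPKM in CD4Cre/+Bob1fl/fl and 5.43 ± 0.67 FPKM in CD4+/+Bob1fl/fl Tfh cells (SD, n = 3 each), with a log2 fold change of 0.26 ± 0.18 (SE; limma, adjusted P = 0.945), which was 0.13 without Bob1KO replicate 3. *Acsl4* is on the X chromosome, from 142317993 to 142390802, and without the replicate 2 libraries, which hold Y-linked RNA, its fold change was 0.31. All 6 libraries had 5 to 8 rows inside it that were not added, of up to 3.35 FPKM.

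*Acsl5*, on chromosome 19 from 55251861 to 55296628, encodes an enzyme of mitochondria and endoplasmic reticulum and had 75.9, 58.8 and 68.4 FPKM in CD4Cre/+Bob1fl/fl Tfh cells, against 67.9, 53.9 and 60.4 FPKM in CD4+/+Bob1fl/fl Tfh cells. In both groups replicate 1 was highest and replicate 2 lowest, and the groups overlapped. The log2 fold change was 0.15 ± 0.14 (SE; limma, adjusted P = 0.945), from means of 67.7 ± 8.59 FPKM in CD4Cre/+Bob1fl/fl and 60.7 ± 7.02 FPKM in CD4+/+Bob1fl/fl Tfh cells (SD, n = 3 each). It was 0.07 without Bob1KO replicate 1 and 0.25 without Bob1KO replicate 2. Ranked by mean FPKM over the 6 libraries, the order was *Acly* (89.6), *Acsl5* (64.2), *Elovl1* (60.6), *Elovl5* (57.5), *Scd2* (25.0), *Fasn* (12.2), *Acsl4* (6.10), *Elovl6* (2.04), *Acaca* (1.53) and *Scd1* (0.00474). *Acsl5*, *Elovl1* and *Elovl5* are neighbours in this order whose ranges overlapped, and *Elovl6* and *Acaca* overlapped in CD4+/+Bob1fl/fl Tfh cells, from 1.72 and to 1.80 FPKM, and not in CD4Cre/+Bob1fl/fl Tfh cells.

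**Figure D2:**
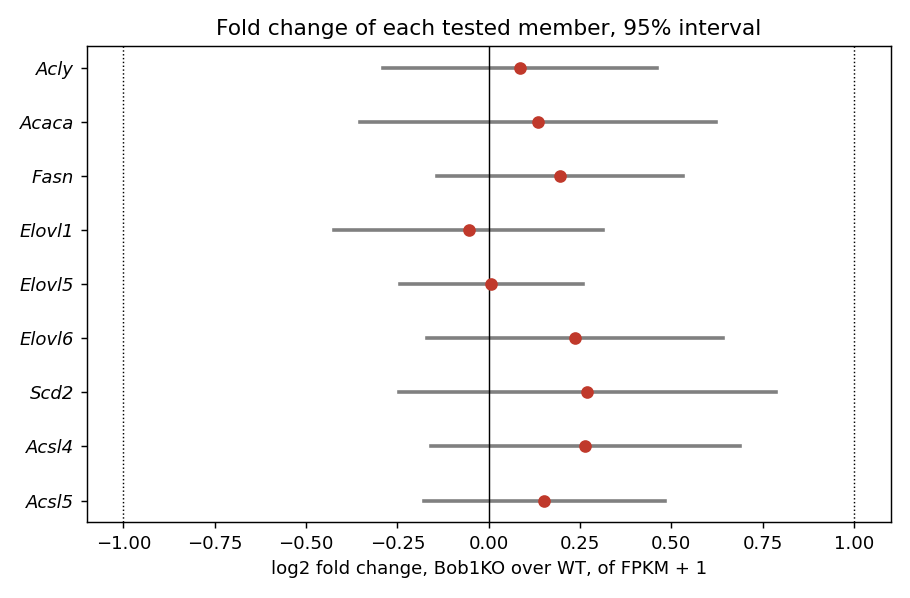
Log2 fold change of FPKM + 1 in Bob1KO over WT Tfh cells for the 9 enzymes tested (points) with 95% intervals from limma (gray lines); the solid vertical line is no change and dotted lines mark a halving and a doubling of FPKM + 1. For genes near 1 FPKM these lines lie further out than a halving or doubling of the gene itself. Every interval includes 0 and all lie within the dotted lines.

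The authors' table also gives 1 FPKM for each group, computed over all its libraries and normalized apart from the library files, so no spread goes with it. These were 128 in CD4Cre/+Bob1fl/fl and 113 in CD4+/+Bob1fl/fl Tfh cells for *Acly*, 14.0 in Bob1KO and 12.5 in WT for *Fasn*, and 2.70 in Bob1KO and 2.14 in WT for *Elovl6*. *Acsl4* stood at 8.26 in Bob1KO and 6.74 in WT, and *Acsl5* at 86.5 in Bob1KO and 77.6 in WT. *Elovl1* had 70.1 in Bob1KO and 73.0 in WT, and *Elovl5* 69.2 in Bob1KO and 70.6 in WT. *Scd2*, on a row shared with *Scd3* and *Mir5114*, had 30.6 in Bob1KO and 25.2 in WT, *Acaca* 0.903 in Bob1KO and 0.894 in WT, and *Scd1* 0.011 in Bob1KO and 0 in WT. The ratio of Bob1KO over WT was 1.01 for *Acaca* there and 1.16 between the means of the libraries, and for *Elovl5* it was 0.98 there and 1.01 between those means. Both group values of *Acaca* lay below its lowest single library, WT replicate 1 at 1.16 FPKM, and the reason was not tested.

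Of 82 further genes of fatty acid synthesis and its supply, use and control, 81 could be placed and 57 were tested, and 0 passed the adjusted P. The 57 fold changes had a median of 0.05, 35 of them above 0 and 22 below, beside a share of 49.4% positive over all genes tested. The 57 and the 35 include *Scd3*, which passed the filter only through the *Scd2* row in Bob1KO replicate 2. At an unadjusted P of 0.05, 1 gene in each direction passed, beside 5.28% of all genes tested, and 3 of the 57 did not overlap between the groups, beside 10.7% of all genes tested. The 5 tested genes that supply acetyl-CoA and NADPH had a median log2 fold change of 0.08 and ran from 0.004 to 0.27. All were positive, and 0 of the 5 passed an unadjusted P of 0.05 (limma). *G6pdx*, the first enzyme of the pentose phosphate pathway, was closest to the threshold there, with 42.6, 28.5 and 33.4 FPKM in CD4Cre/+Bob1fl/fl Tfh cells, against 28.5, 29.9 and 32.4 FPKM in CD4+/+Bob1fl/fl Tfh cells, and the groups overlapped (0.18 ± 0.16, log2, SE; limma, adjusted P = 0.945). *Idh1*, the cytosolic isocitrate dehydrogenase, stood at 0.27 ± 0.28. Both depended on single libraries, since without Bob1KO replicate 1 *G6pdx* was at 0.03 and *Idh1* at 0.09, and without Bob1KO replicate 2 at 0.31 and 0.59. *Me1*, encoding cytosolic malic enzyme, was listed at 0 in all 6 libraries.

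The malonyl-CoA and mitochondrial synthesis list had 5 of 6 fold changes below 0 and a median of -0.02. *Ndufab1*, the acyl carrier protein of mitochondria, averaged 67.7 ± 19.8 FPKM in CD4Cre/+Bob1fl/fl and 89.7 ± 9.99 FPKM in CD4+/+Bob1fl/fl Tfh cells (SD, n = 3 each; log2 fold change -0.44 ± 0.22, SE; limma, adjusted P = 0.945), and the fold change was -0.19 without Bob1KO replicate 3. *Mcat*, which loads malonate onto that carrier, had a log2 fold change of -0.15 ± 0.12, which was -0.07 without WT replicate 3. Of the other elongation and desaturation genes, 7 were tested and 4 were negative, and the list's median was -0.07. *Scd3* is among the 7, and its positive fold change of 1.40 comes from the row it shares with *Scd2* in Bob1KO replicate 2. The list's median without *Scd3* was not computed. *Tecr*, the reductase of the last step of each elongation cycle, was among the most abundant, with 214, 188 and 192 FPKM in CD4Cre/+Bob1fl/fl Tfh cells, against 243, 216 and 226 FPKM in CD4+/+Bob1fl/fl Tfh cells. Its groups did not overlap, and its log2 fold change was -0.21 ± 0.11 (SE; limma, adjusted P = 0.945). *Fads1*, the delta-5 desaturase, averaged 4.31 ± 0.63 FPKM in CD4Cre/+Bob1fl/fl and 5.80 ± 1.38 FPKM in CD4+/+Bob1fl/fl Tfh cells (SD, n = 3 each; log2 fold change -0.34 ± 0.21, SE), and the fold change ran from -0.52, without WT replicate 1, to -0.22, without WT replicate 3. *Elovl2* and *Elovl3* were listed at 0 in all 6 libraries, and *Elovl4* and *Elovl7* did not exceed 0.715 FPKM.

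The list of other acyl-CoA synthetases, binding proteins and thioesterases held 8 tested genes with a median of 0.16. *Dbi*, the acyl-CoA binding protein, had 138, 101 and 96.5 FPKM in CD4Cre/+Bob1fl/fl Tfh cells, against 144, 132 and 169 FPKM in CD4+/+Bob1fl/fl Tfh cells. Bob1KO replicates 2 and 3 were below every WT library, and the log2 fold change of -0.42 ± 0.17 (SE) had an unadjusted P of 0.0426 and an adjusted P of 0.934 (limma). *Acot7*, an acyl-CoA thioesterase, stood at 0.16 ± 0.15, and at 0.08 without Bob1KO replicate 3 and 0.31 without Bob1KO replicate 2. The 15 tested genes that place acyl chains into glycerolipids had a median of 0.16, and 11 of them were above 0. *Lpcat4*, a lysophospholipid acyltransferase, had 110, 136 and 108 FPKM in CD4Cre/+Bob1fl/fl Tfh cells, against 97.9, 75.6 and 88.7 FPKM in CD4+/+Bob1fl/fl Tfh cells. The groups did not overlap, and the log2 fold change of 0.43 ± 0.14 (SE) had an unadjusted P of 0.0211 and an adjusted P of 0.930 (limma). *Lpin1*, a phosphatidate phosphatase, was likewise apart, with 8.93 ± 1.35 FPKM in CD4Cre/+Bob1fl/fl and 6.92 ± 0.72 FPKM in CD4+/+Bob1fl/fl Tfh cells (SD, n = 3 each; limma, adjusted P = 0.945).

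**Figure D3:**
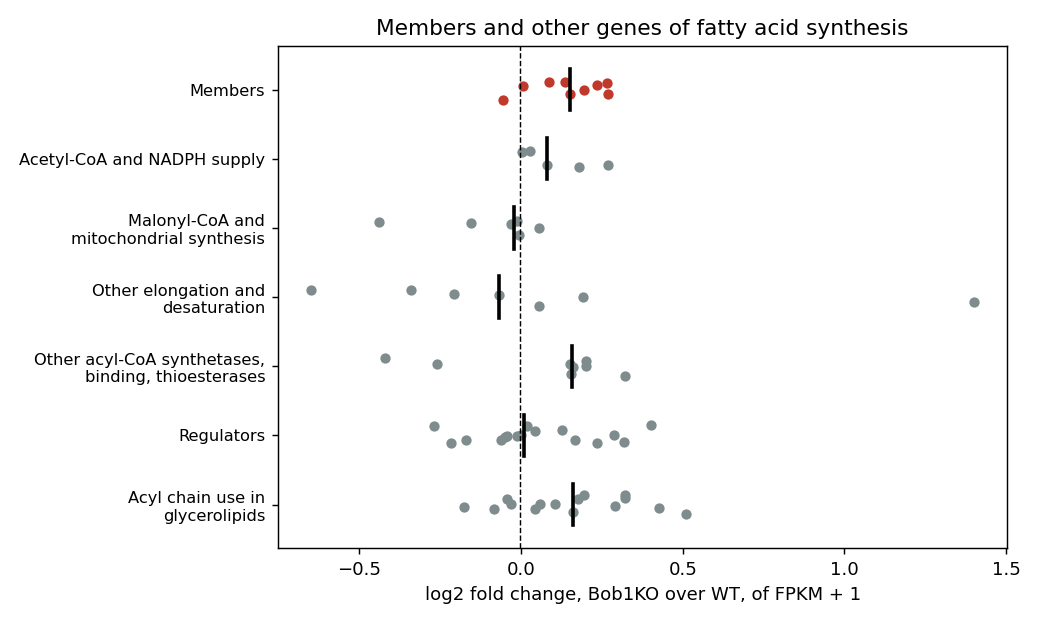
Log2 fold change of FPKM + 1 in Bob1KO over WT Tfh cells for the 9 enzymes tested (red) and 57 other genes in 6 lists (gray), each point a gene; black bars are list medians and the dashed line is the median of all 10411 genes tested. List medians, with Scd3 counted, lie between -0.07 and 0.16. The point at 1.40 is Scd3, whose value in 1 library is that of the Scd2 row.

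The 16 tested regulators had 9 positive and 7 negative fold changes and a median of 0.01. *Srebf1*, which encodes the SREBP that drives fatty acid genes, had 34.0, 37.7 and 35.8 FPKM in CD4Cre/+Bob1fl/fl Tfh cells, against 38.8, 35.5 and 36.5 FPKM in CD4+/+Bob1fl/fl Tfh cells, and it was chosen after its values were seen. The groups overlapped at a log2 fold change of -0.04. *Mlxip*, which encodes the glucose-responsive factor MondoA, had 24.7, 39.5 and 32.2 FPKM in CD4Cre/+Bob1fl/fl Tfh cells, against 24.5, 26.5 and 20.3 FPKM in CD4+/+Bob1fl/fl Tfh cells, and the log2 fold change was 0.40 ± 0.19 (SE; limma, adjusted P = 0.945). It was 0.24 without Bob1KO replicate 2. *Rptor*, the mTORC1 subunit Raptor, stood at 0.29 ± 0.18, and at 0.17 without Bob1KO replicate 2. *Mlxipl* and *Thrsp*, both prominent in liver lipogenesis, did not exceed 0.121 and 0.103 FPKM.

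**Figure D4:**
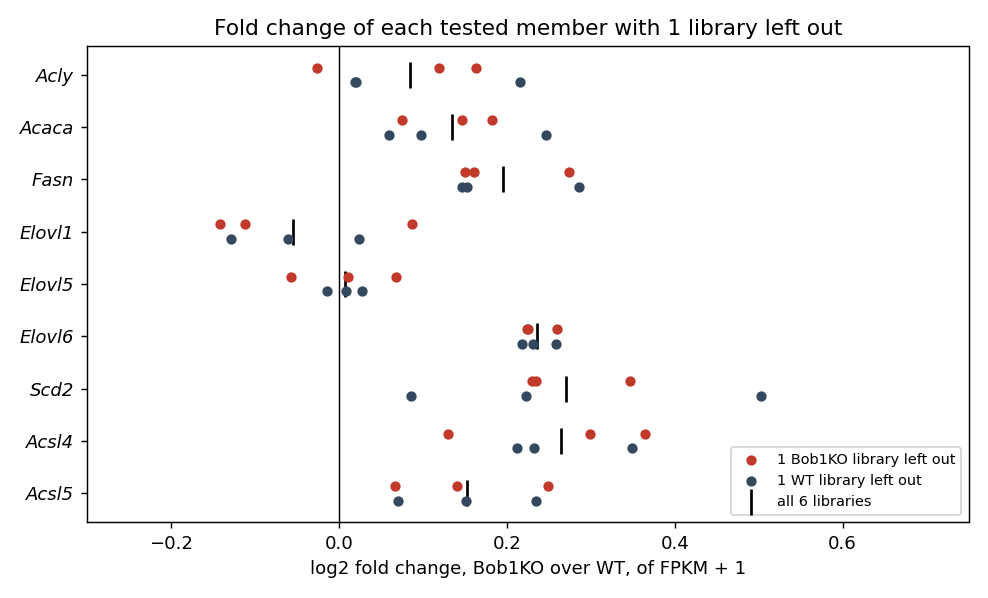
Log2 fold change of FPKM + 1 in Bob1KO over WT Tfh cells for the 9 enzymes tested, with all 6 libraries (black ticks) and with 1 Bob1KO (red) or 1 WT library (blue) left out. Acly, Elovl1 and Elovl5 have points on both sides of 0, Elovl6 stays between 0.22 and 0.26, and Scd2 moves from 0.09 to 0.50.

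Leaving out each library in turn, 0 of the 9 enzymes passed the adjusted P in any of the 6 fits, and the median log2 fold change of the 9 stayed between 0.10 and 0.22. *Acly*, *Elovl1* and *Elovl5* changed sign in at least 1 of these fits. *Acaca*, *Fasn*, *Elovl6*, *Scd2*, *Acsl4* and *Acsl5* kept a positive sign in all of them.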

How the data were processed

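RNA was from sorted splenic Tfh cells, 3 libraries of each genotype, amplified with SMART-Seq v4. Per the labels and the methods of the study, the authors used cutadapt 1.2.1, TopHat2 2.0.13 and Cufflinks 2.2.1 with GRCm38 and deposited FPKM per library and 1 FPKM per group. The columns of the authors' comparison, with fold changes, statistics, P and q values, were not used. Transcripts were assembled in each library, so 94.07% to 95.92% of a library's FPKM stood in rows with an assembly number and no gene name. Such rows were assigned to genes by position, where a row and a gene shared at least 0.5 of their joint length or the row covered 0.95 of the gene, and summed. This placed 25861 genes in all 6 libraries and 91.74% to 92.31% of the FPKM. Log2 values of the means correlated at 0.99 with the authors' group FPKM across genes, which are not independent replicates, and 7 genes with a failed status were left out.

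A linear model of log2(FPKM + 1) on genotype alone was fitted to genes averaging at least 1 FPKM by limma (version 3.58.1, R version 4.3.3), with the variance trend on. Tests were two-sided, and adjusted P stands for the Benjamini-Hochberg false discovery rate. Permutation tests were exact and two-sided. The files hold no counts. Fragments implied by the Cufflinks bounds were whole, within 0.05, for 44.6% to 48.0% of values, too few to recover counts or depth, so no count test was run and the depth is unknown. In simulated data on the 10411 genes of this comparison, 100 genes were changed 2-fold and 100 were changed 4-fold. Of these, 57% of the 2-fold changes and 87% of the 4-fold changes were recovered, beside 8 false calls. The adjusted P is stricter where fewer genes change, so these shares do not carry over to 1 changed gene in the real data. Same-numbered libraries are not stated to share an experiment, and P values measure the spread between libraries. The alternatives were other pseudocounts, filters, scalings, matching rules, a replicate block and left-out libraries. Tables used Python 3.11.15 and pandas 2.3.3.

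The members and lists were chosen with earlier results of these data known. The genes named are the 10 enzymes, *Pou2af1*, up to 2 genes with the smallest P of each list where none passed, and the most abundant gene of a marker list. Other genes named for a low or absent level, and proliferation genes of the marker list other than *Pcna*, were named after their values were seen.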

Additional observations from a re-analysis of the deposited data

How the results depend on the processing

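Of the enzymes tested, 0 passed the adjusted P of 0.05 under any of the 17 alternatives or the one added for *Scd2*, and the smallest adjusted P of any of them was 0.772 (limma). All 9 were tested under each alternative except a mean of at least 5 FPKM, which left out *Acaca* and *Elovl6* and tested 7, and *Scd1* was tested as well where no filter was used. The median log2 fold change of the 9, or of those 7, lay between 0.10 and 0.21 under the alternatives that kept all libraries or dropped both replicate 2 libraries, and between 0.10 and 0.22 with 1 library left out. For the other genes of fatty acid synthesis, of which 46 to 57 were tested, 0 passed under any alternative, and the median lay between 0.02 and 0.06, or between 0.01 and 0.07 with 1 library left out. Without both replicate 2 libraries the log2 fold change of *Acly* was -0.0921 and that of *Elovl1* was 0.0141. With 1 library left out *Acly* ran from -0.0264 to 0.216, *Elovl1* from -0.141 to 0.0878 and *Elovl5* from -0.0564 to 0.0677. The number of genes called among all tested was 3, was 1 with a mean of at least 5 FPKM, which tests fewer genes, and ran from 0 (without WT replicate 2) to 7 (without WT replicate 1) with 1 library left out. *Pou2af1* had a log2 fold change of -4.60 (adjusted P = 0.0785) without both replicate 2 libraries and of -4.91 to -4.50 with 1 left out, and the cause of the lost call was not tested.

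With a replicate block 1 gene was called among all tested, *Pou2af1* (adjusted P = 0.00811), and 0 of the 9 enzymes. Deviations of same-numbered libraries correlated at 0.08 to 0.124 and those of other pairs at -0.09 to 0.005, so each library correlated best with its own number, a hint from the data and not from the design. Without counts, depth sets no limit that could be computed, and 3 libraries a group recovered 57% of simulated 2-fold changes. That share was reached with 100 genes changed 2-fold and 100 changed 4-fold at once. It is not the chance of calling 1 changed enzyme in the real data, where 3 genes passed in all.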
